A study of Mus musculus with 48 samples.

Results

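Paneth cells sit at the base of the crypts of the small intestine and release granules of antimicrobial proteins. The genes followed here are used as Paneth cell genes but are not defensins: Lyz1, Lyz2, Mmp7, Ang4, Itln1, Mptx1, Mptx2 and Sox9. They were listed by symbol, with no rule on their values but with earlier results of these data known. All 8 of 8 were found among 54532 genes in the table of estimated counts.

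Total RNA of whole-thickness bowel from C57Bl/6J mice was sequenced at birth (day 0), on days 2, 4, 6 and 8, and in weeks 2, 3 and 4. Each age had 3 samples of duodenum, the first 2 cm after the stomach outlet, and 3 of ileum, the last stretch before the caecum, which gave 48 samples in 16 groups. No group was treated: males and females of one strain were used throughout, pups were weaned from the dam to chow on day 21, and usually a few ages were drawn from each litter. The housing is called standard germ-free in the labels, which leaves the microbial state of the animals unclear. Whether the duodenum and ileum samples of one age and number came from one animal is not given in the sources used here, so p-values measure the spread between these samples.

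Paneth cells arise in the mouse after birth as crypts form, from progenitors that depend on Wnt signalling and on the transcription factor Sox9. Their granules carry lysozyme, which cuts bacterial cell walls, alpha-defensins, which the protease Mmp7 activates by trimming their precursors, the microbicidal ribonuclease Ang4 and the sugar-binding lectin Itln1. Mptx1 and Mptx2 encode mucosal pentraxins, secreted relatives of C-reactive protein. Several of these genes are not restricted to Paneth cells: Lyz2 is the lysozyme of macrophages and neutrophils, Itln1 is also made by goblet cells, and Sox9 is also made by crypt progenitors and enteric glia.

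The day 6 samples numbered 3 went against their labels. The library labelled duodenum held 0.115 CPM (counts over library size, after scaling between libraries) of Pdx1, a duodenal transcription factor, and 1.98 CPM of the ileal bile acid binding protein Fabp6, while the library labelled ileum held 14.6 and 0 CPM. The other day 6 duodenum samples had 11.0 and 11.7 CPM of Pdx1 and 0 of Fabp6. The other day 6 ileum samples had 0.0869 and 0.421 CPM of Pdx1 and 3.60 and 2.26 of Fabp6. Both libraries were left out, so day 6 has 2 samples per region and 46 samples were used. Sample totals over the series ran from 16824021 to 65042327 estimated counts, and all 8 genes passed the filter on low counts with 21986 genes tested. Since this is bulk tissue, fewer Paneth cells and less RNA per cell cannot be told apart.

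Among the members are 2 pairs of related genes whose levels went apart with age, so the sequence upstream of each is shown. Lyz1 (10:117287797-117292868) and Lyz2 (10:117277331-117282321) lie next to each other on the minus strand of chromosome 10, in GRCm38 with GENCODE M21 annotation. Mptx1 (1:174330518-174332873, plus strand) and Mptx2 (1:173274382-173277777, minus strand) both lie on chromosome 1. The lines give bases 250 to 51 before the RefSeq start of transcription on GRCm38.p6, 5′ to 3′ on the gene's own strand. They are chr10:117292919-117293118 (minus strand) for Lyz1 and chr10:117282323-117282522 (minus strand) for Lyz2. Those of the pentraxins are chr1:174330268-174330467 (plus strand) for Mptx1 and chr1:173277807-173278006 (minus strand) for Mptx2. Capitals mark bases that differ from the related gene or have no partner in its window.
Lyz1: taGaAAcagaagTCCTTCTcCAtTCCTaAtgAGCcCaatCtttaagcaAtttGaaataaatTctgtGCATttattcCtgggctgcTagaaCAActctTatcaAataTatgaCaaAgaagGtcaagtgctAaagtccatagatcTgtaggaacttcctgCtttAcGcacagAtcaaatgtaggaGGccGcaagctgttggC
Lyz2: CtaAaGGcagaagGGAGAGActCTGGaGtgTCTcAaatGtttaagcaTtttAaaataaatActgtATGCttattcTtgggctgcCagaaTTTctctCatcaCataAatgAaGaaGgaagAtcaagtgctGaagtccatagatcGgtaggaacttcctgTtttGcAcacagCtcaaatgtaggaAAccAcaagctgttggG
Mptx1: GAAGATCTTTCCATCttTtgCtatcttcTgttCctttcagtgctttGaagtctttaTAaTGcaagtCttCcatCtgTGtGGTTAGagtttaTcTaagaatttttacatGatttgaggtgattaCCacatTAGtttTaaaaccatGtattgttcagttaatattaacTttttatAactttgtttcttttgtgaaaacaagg
Mptx2: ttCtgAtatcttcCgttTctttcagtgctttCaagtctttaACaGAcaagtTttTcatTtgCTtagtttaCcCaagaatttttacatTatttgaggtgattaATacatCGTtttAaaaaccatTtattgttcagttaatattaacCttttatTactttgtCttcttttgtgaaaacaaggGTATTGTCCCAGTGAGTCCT
The lysozyme windows were identical at 150 of 202 aligned positions (74.3%), and the pentraxin windows at 153 of 221 (69.2%). A run of capitals at one end of each pentraxin line is the offset between the annotated starts.

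RefSeq promoters were found for 7 of the 8 members, all but Sox9, and Mmp7 has 2 of them. In the 250 bases before the start, on either strand, the TCF/LEF core CTTTGA or CTTTGT, to which Wnt effectors bind, occurred in Lyz1 at -140, in Ang4 at -113, in Mptx1 at -208 and -75, and in Mptx2 at -96. It also occurred at the second Mmp7 start, at -246 and -186. These letters are in 27.6% of 32851 mouse promoters searched the same way. The -75 match of Mptx1 and the -96 match of Mptx2 lie at the same aligned place. The -140 match of Lyz1 falls where Lyz2 carries other letters. The ETS core AGGAAGT occurred at -100 in both Lyz1 and Lyz2, at -209 in Ang4 and at -109 of the first Mmp7 start, against 7.7% of promoters. The CDX core TTTATNA occurred in Mptx1 at -198 and -82 and in Mptx2 at -103, against 12.8%. These matches did not overlap one another, and they are letters in a window, not shown binding sites.

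From birth to week 4 Lyz1, Mmp7, Ang4, Itln1 and Mptx2 rose in both regions, Lyz2 rose in the ileum, Mptx1 fell in both, and Sox9 passed through a peak in between. Between day 0 and week 4, 5 members rose and 1 fell in the duodenum, and 6 rose and 1 fell in the ileum. Of all genes tested, 40.5% were called in the duodenum (20.4% higher and 20.1% lower) and 41.9% in the ileum (21.5% higher and 20.4% lower). Calls are at an adjusted p under 0.05 in edgeR's quasi-likelihood test. The median log2 fold change of the 8 genes was 4.12 in duodenum and 5.0 in ileum, against -0.02 and 0.08 over all genes tested. Separate tests of any change over the ages called 8 of 8 members in the duodenum (67.4% of all genes) and 8 of 8 in the ileum (58.7%). Comparisons that use the same age, such as those with day 0 or week 4, share samples and are not independent of each other.

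**Figure D1:**
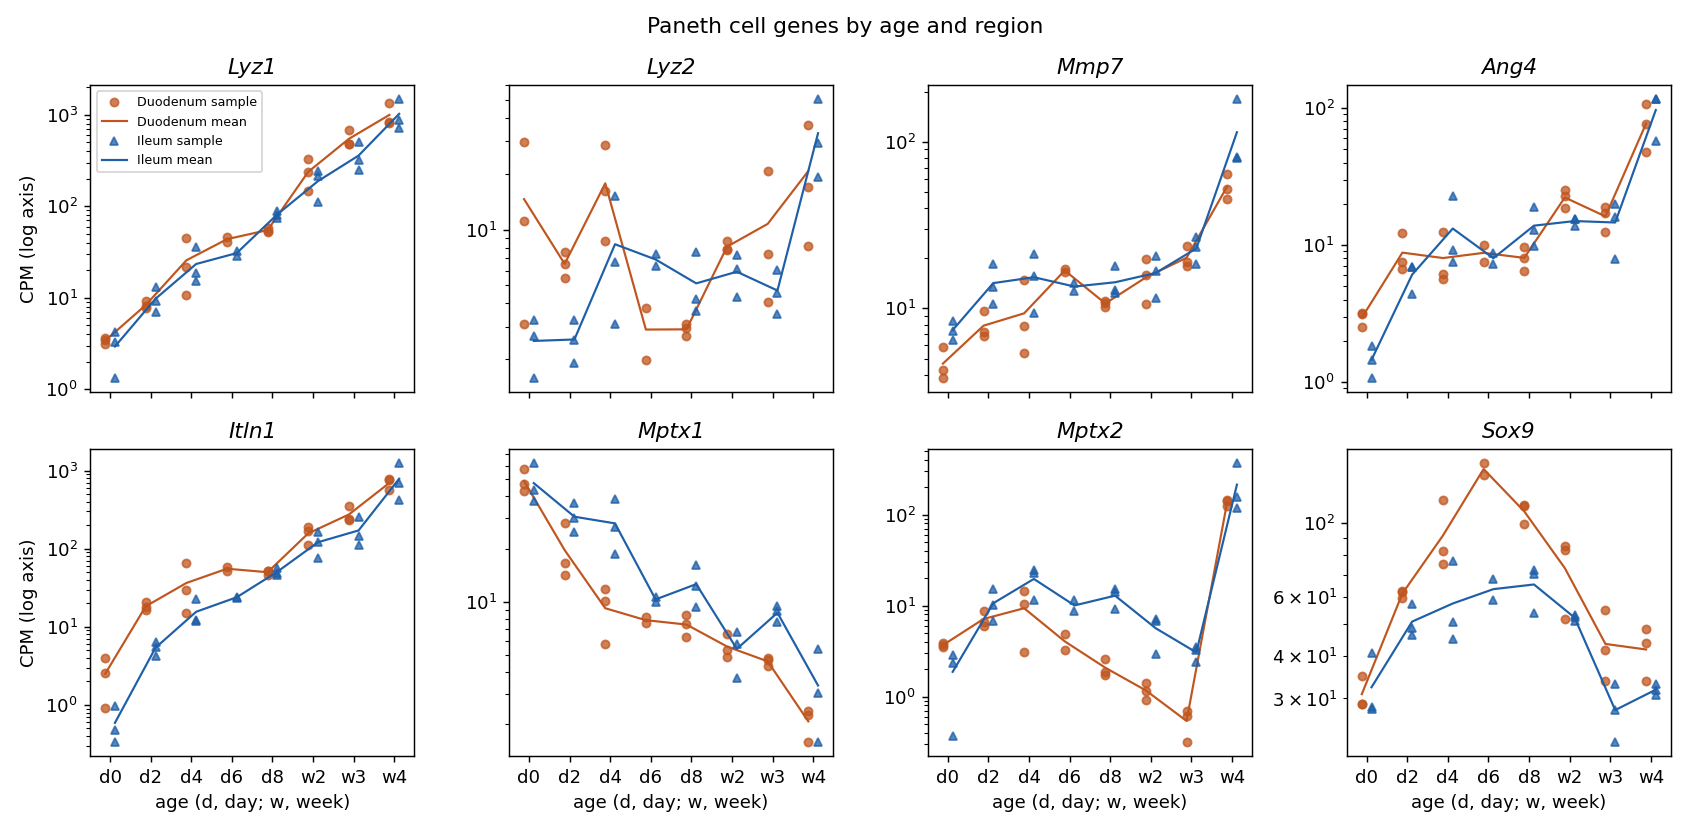
Expression of the 8 genes in each sample (points; circles duodenum, triangles ileum) and group mean (lines) in CPM on a log axis, by age (d, day; w, week), with 3 samples per group and 2 at day 6. Lyz1 and Itln1 climb from under 5 CPM at day 0 to above 400 at week 4, Mptx1 declines, and Mptx2 jumps between week 3 and week 4.

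Lyz1, the lysozyme of Paneth granules, was at 3.44, 3.14 and 3.59 CPM in the 3 duodenum samples at day 0 and at 1335, 812 and 842 CPM at week 4. In the ileum it went from 1.33, 4.17 and 3.28 CPM to 870, 1491 and 709 CPM. Every week 4 sample was far above every day 0 sample. The log2 fold change was 8.19 ± 0.53 (SE, edgeR adjusted p = 5.47e-15) in the duodenum and 8.45 ± 0.53 (3.1e-15) in the ileum, a ratio of mean CPM of 294 and 349.

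The climb of Lyz1 was spread over the whole period. In the duodenum it stood at 9.11, 8.17 and 7.70 CPM at day 2, 10.7, 21.5 and 44.8 at day 4, 46.5 and 40.9 at day 6, and 52.9, 53.9 and 57.8 at day 8. It then reached 147, 329 and 236 CPM at week 2 and 480, 678 and 476 at week 3. In either region its mean was higher at each age than at the one before, and only the day 4 and day 6 samples overlapped among the 7 neighbouring pairs of ages. The step from day 8 to week 2 was called in the duodenum (log2 fold change 2.11 ± 0.40, edgeR adjusted p = 0.000728) and was 1.21 ± 0.39 in the ileum (0.0517). From week 2 to week 3 the duodenal step was 1.2 ± 0.38 (0.0247) and the ileal step 0.93 ± 0.38 (0.0703). The former call was lost without duodenum week 2 sample 1 (adjusted p 0.146), week 2 sample 3 (0.071) or week 3 sample 2 (0.12).

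Itln1, which encodes intelectin, moved much like Lyz1 but from a lower start. At day 0 it was at 0.915, 2.596 and 3.99 CPM in the duodenum and 0.333, 0.960 and 0.475 in the ileum. By week 4 it was at 748, 770 and 568 CPM in the duodenum and 698, 1239 and 420 in the ileum. Its log2 fold change of 10.42 ± 0.64 in the ileum (edgeR adjusted p = 2.22e-15) exceeded that of the other members there, and in the duodenum it was 8.09 ± 0.56 (5.65e-14). By day 8 the duodenum samples held 51.4, 51.9 and 46.6 CPM and the ileum samples 56.7, 48.9 and 46.5, which closed the gap between the regions.

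Mmp7, the protease that activates alpha-defensins, changed less and later. It went from 5.88, 4.28 and 3.83 CPM at day 0 to 19.0, 23.5 and 17.9 at week 3 and 52.1, 64.4 and 45.0 at week 4 in the duodenum. In the ileum it went from 8.43, 7.35 and 6.44 CPM to 23.5, 26.8 and 18.4 and then to 81.0, 181 and 80.2. The log2 fold change from day 0 to week 4 was 3.53 ± 0.34 in the duodenum (edgeR adjusted p = 5.69e-11) and 3.95 ± 0.34 in the ileum (3.81e-12).

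Ang4, the angiogenin of Paneth granules, was higher at week 4 than at any earlier age. The duodenum samples held 2.52, 3.19 and 3.12 CPM at day 0, 12.2, 7.52 and 6.67 at day 2, 17.2, 18.8 and 12.5 at week 3, and 107, 76.5 and 47.4 at week 4. The ileum samples held 1.07, 1.84 and 1.45 CPM at day 0, 6.97, 6.93 and 4.36 at day 2, 15.96, 19.98 and 7.86 at week 3, and 117, 116 and 57.6 at week 4. In neither region did week 4 overlap any earlier age. Both regions had earlier rises. From day 0 to day 8 the log2 change was 1.45 ± 0.38 in the duodenum (edgeR adjusted p = 0.00214) and 3.25 ± 0.42 in the ileum (4.54e-07). The duodenum then went from 6.42, 8.08 and 9.68 CPM at day 8 to 22.9, 25.3 and 18.6 at week 2 (log2 1.46 ± 0.36, 0.00611). The ileal change over that step was 0.12 ± 0.36 (0.889). The step from week 2 to week 3 was -0.46 ± 0.36 in log2 units in the duodenum (edgeR adjusted p = 0.42) and -0.03 ± 0.36 in the ileum (0.963), and that from week 3 to week 4 was 2.25 ± 0.37 (3.45e-05) and 2.73 ± 0.38 (1.44e-06). The day 0 to week 4 change was 4.71 ± 0.42 (1.61e-11) and 6.06 ± 0.45 (1.8e-13).

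Mptx1 and Mptx2 changed in opposite directions. Mptx1 was the more abundant of the pair at birth, with 42.8, 46.9 and 57.4 CPM in the duodenum and 37.5, 43.6 and 61.8 in the ileum. At week 4 it was down to 2.27, 2.39 and 1.59 CPM in the duodenum and 5.42, 1.58 and 3.01 in the ileum, with no overlap with day 0. It fell by 4.55 in log2 units in the duodenum (SE 0.35, edgeR adjusted p = 1.65e-13) and fell by 3.87 in the ileum (SE 0.34, 5.42e-12). In the duodenum most of this was over by day 4, when the samples held 5.74, 10.1 and 11.8 CPM, while the ileum samples still held 18.8, 38.8 and 26.6.

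Mptx2 stayed low through suckling and then switched on. In the duodenum it went from 3.85, 3.51 and 3.66 CPM at day 0 up to 3.10, 10.5 and 14.5 at day 4 and down to 0.609, 0.314 and 0.693 at week 3. One week later it was at 142, 125 and 145 CPM. In the ileum it went from 0.369, 2.88 and 2.35 CPM at day 0 to 11.6, 24.6 and 22.7 at day 4 and 3.24, 3.52 and 2.41 at week 3, and then to 156, 367 and 119 at week 4. Each week 4 sample exceeded all samples of the other ages. The step from week 3 to week 4 was 7.94 ± 0.61 in log2 units in the duodenum (edgeR adjusted p = 1.36e-11), a 255-fold ratio of mean CPM, and 6.13 ± 0.55 in the ileum (4.93e-10), a 69.9-fold ratio. Over all alternatives run, the duodenal value ranged from 7.70 to 8.12 and the ileal one from 5.47 to 6.4. Over the whole span, day 0 to week 4, the change was 5.22 ± 0.52 in duodenum (edgeR adjusted p = 4.53e-10) and 6.83 ± 0.57 in ileum (5.67e-12, and 6.15 without ileum week 4 sample 2).

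Within each sample, the balance of each related pair was taken per length of annotated exons. Mptx2 stood at 0.0642 to 0.0906 times Mptx1 in the duodenum at day 0 and at 0.0676 to 0.163 times at week 3, and then at 52.8 to 91.8 times at week 4. In the ileum it was 0.00991 to 0.0664 times Mptx1 at day 0, 0.316 to 0.399 at week 3 and 28.9 to 233 at week 4. Mptx2 was thus below Mptx1 in every week 3 sample and above it in every week 4 sample of both regions. Lyz1 went from 0.127 to 1.15 times Lyz2 in the duodenum at day 0 to 23.0 to 170 times at week 4, and in the ileum from 0.872 to 1.63 times to 17.9 to 80.8 times. Of the 31-base words in Lyz1 transcripts, 34.2% also occur in Lyz2, and 25.0% of those of Mptx1 occur in Mptx2, so the authors' estimate could divide part of the reads of each pair.

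**Figure D2:**
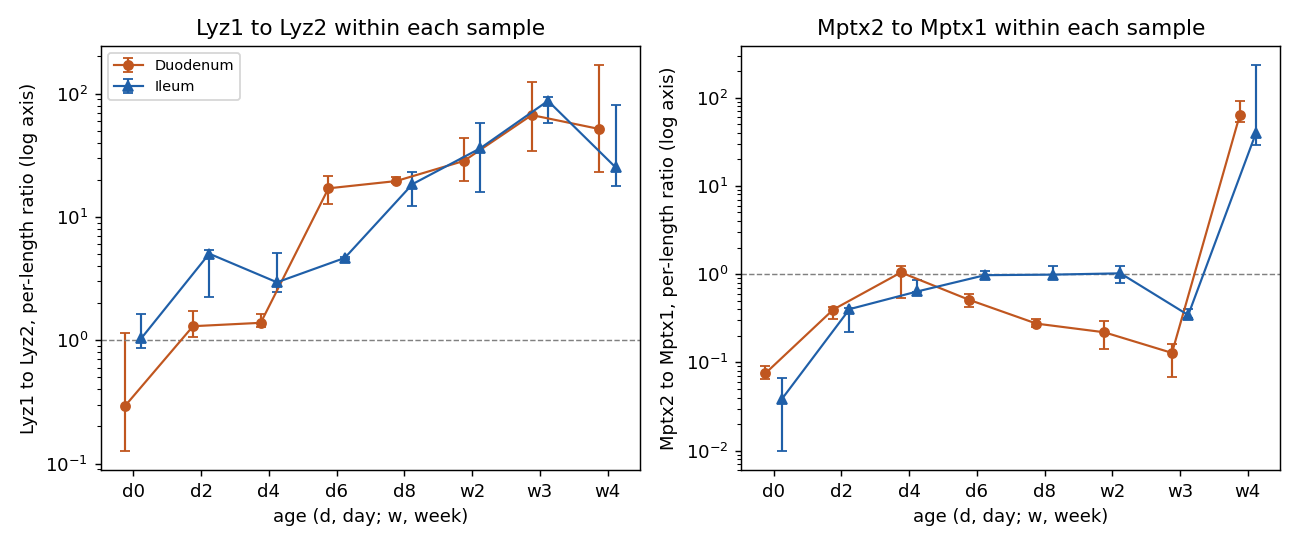
Ratio of Lyz1 to Lyz2 (left) and of Mptx2 to Mptx1 (right) within each sample, per exonic length, on a log axis, by age (d, day; w, week). Points are group medians and bars the lowest and highest sample. Mptx2 stays near or below Mptx1 until week 3 and is at least 28.9 times as high in every week 4 sample.

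Lyz2, the lysozyme of phagocytes, did not follow Lyz1. Its duodenum samples held 3.11, 11.1 and 29.5 CPM at day 0, 2.94, 2.68 and 3.08 at day 8, and 8.19, 36.8 and 17.0 at week 4. The day 0 samples thus spread over nearly the whole range seen later, and the change to week 4 was 0.49 ± 0.59 on the log2 scale (edgeR adjusted p = 0.531). In the ileum Lyz2 was at 1.59, 2.67 and 3.28 CPM at day 0, 3.52, 6.03 and 4.53 at week 3, and 50.6, 19.2 and 29.3 at week 4. There it rose by 3.70 ± 0.67 on the log2 scale from day 0 to week 4 (2.82e-05) and by 2.81 ± 0.64 from week 3 to week 4 (0.0018).

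Phagocyte markers stood beside Lyz2. In the duodenum samples 1, 2 and 3 of day 0, C1qa, a complement gene of macrophages, was at 4.10, 8.56 and 17.4 CPM and S100a8, a neutrophil gene, at 1.39, 3.92 and 8.84 CPM, the same order as Lyz2. Of these lists, 8 of 10 macrophage and 5 of 6 neutrophil genes had that order. The share of all genes with that order was not computed. Csf1r (112, 77.7 and 81.0 CPM), Adgre1 (2.38, 2.19 and 5.52) and Ltf (5.46, 4.87 and 8.42) did not have it. Of the neutrophil genes in that order, Camp (0.2495, 0.2732 and 0.857 CPM) and Elane (0.0555, 0.0911 and 0.128) were near 0. From day 0 to day 8 Lyz2 fell by 2.34 in log2 units in the duodenum (SE 0.63, edgeR adjusted p = 0.00291), a call that was lost without day 0 sample 3 (0.102). Over the same step 9 of 10 macrophage genes and 5 of 5 tested neutrophil genes fell there, with summed levels of 132 to 182 CPM at day 0 and 72.6 to 77.3 at day 8 for macrophages, and 10.5 to 44.3 and 1.37 to 2.94 for neutrophils. From day 0 to week 4 in the ileum, where Lyz2 rose, 2 of 10 macrophage genes rose and 3 fell. The risers were Cd14 (log2 3.37 ± 0.48, edgeR adjusted p = 3.28e-07) and Itgam (2.52 ± 0.34, 1.03e-07). Csf1r, the largest part of the macrophage sum in each day 0 duodenum sample, fell by 3.56 in the ileum (SE 0.24, 6.32e-15). In the ileum 4 of 5 tested neutrophil genes fell. The macrophage sum there was 106 to 125 CPM at day 0 and 54.4 to 77.9 at week 4, and the neutrophil sum 14.5 to 23.5 and 2.27 to 5.19. The neutrophil gene Elane was at 0 in 43 of 46 samples. Their part in the Lyz2 values was not tested.

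Sox9, the transcription factor needed for Paneth cells to form, rose early and returned. In the duodenum it went from 28.8, 29.0 and 34.9 CPM at day 0 to 150 and 138 at day 6, 99.2, 113 and 112 at day 8, and 48.3, 33.8 and 43.8 at week 4. In the ileum it went from 27.9, 41.0 and 28.3 CPM to 68.0 and 58.8 at day 6, 53.9, 70.2 and 72.3 at day 8, and 33.1, 31.7 and 30.7 at week 4. The peak was higher in the duodenum, and week 4 overlapped day 0 in both regions. By day 8 Sox9 had risen by 1.80 ± 0.20 in log2 units in the duodenum (edgeR adjusted p = 6.84e-09), while the ileal rise was 1.02 ± 0.20 (0.000302). From week 2 to week 3 it fell by 0.75 in the duodenum (SE 0.20, 0.00566) and fell by 0.91 in the ileum (SE 0.20, 0.000531). The duodenal fall was not called without week 3 sample 1 (0.0638).

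Crypt and glial markers were set beside Sox9. The summed level of 6 crypt stem and cycling genes was 473 to 670 CPM in the duodenum at day 0, 7416 to 7495 at day 6, 5149 to 5926 at day 8 and 1911 to 2604 at week 4. In the ileum it was 234 to 361, 1128 to 1534, 1929 to 2292 and 1121 to 1407. All 6 of these genes rose from day 0 to day 8 in both regions. The sum of 4 enteric glia genes in the duodenum was 4.96 to 6.51 CPM at day 0 and 20.4 to 24.4 at day 6. In the ileum it was 4.5 to 6.51 CPM and 7.93 to 11.4. From day 0 to day 8, 1 of these 4 genes rose and 1 fell in the duodenum, and 1 rose in the ileum. Sox10 was at 0 in 2 and Gfap at 0 in 5 of the 46 samples. Their part in the Sox9 course was not tested.

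Read by age step, most calls fell at the beginning and at the end. From day 0 to day 8, 5 members rose (Lyz1, Mmp7, Ang4, Itln1 and Sox9) and 2 fell (Lyz2 and Mptx1) in the duodenum, where 41.2% of all genes were called (22% higher, 19.2% lower). In the ileum Lyz1, Mmp7, Ang4, Itln1, Mptx2 and Sox9 rose and Mptx1 fell, 6 and 1 members, against 19.3% of all genes (8.56% higher, 10.7% lower). The Mmp7 call in the ileum (log2 fold change 0.95 ± 0.31, edgeR adjusted p = 0.028) was lost without ileum day 0 sample 2 (0.0676), day 0 sample 3 (0.109) or day 8 sample 1 (0.145).

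From day 8 to week 2, 4 members were called in the duodenum (15.7% of all genes, 6.75% higher and 8.93% lower) and 1 in the ileum (6.64%, 4.17% higher and 2.47% lower). Lyz1, Ang4 and Itln1 rose in the duodenum and Sox9 fell by 0.56 on the log2 scale (SE 0.20, edgeR adjusted p = 0.0489). The Sox9 call was lost without duodenum day 8 sample 1 (0.0715), 2 (0.132) or 3 (0.119) or week 2 sample 1 (0.338). In the ileum Mptx1 fell by 1.22 (SE 0.31, 0.0134), which was lost without day 8 sample 1 (0.161), week 2 sample 1 (0.099) or week 2 sample 3 (0.0503). From week 2 to week 3, which ends at the stated weaning age, 2 members were called in the duodenum, Lyz1 higher and Sox9 lower (18.3% of all genes, 7.7% higher and 10.6% lower), and 1 in the ileum, Sox9 lower (26.8%, 12.9% higher and 13.9% lower).

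From week 3 to week 4 in the duodenum Mmp7, Ang4, Itln1 and Mptx2 rose and Mptx1 fell, 5 members against 12.7% of all genes (7.75% higher, 4.96% lower). In the ileum all members but Sox9 were called, 6 higher and Mptx1 lower, against 16.1% of all genes (8.26% higher, 7.81% lower). The log2 fold change of Mmp7 was 1.42 ± 0.31 in the duodenum (edgeR adjusted p = 0.00121) and 2.32 ± 0.32 in the ileum (8.72e-07), and that of Itln1 was 1.35 ± 0.41 (0.0251) and 2.20 ± 0.42 (0.000243). That of Lyz1 was 0.87 ± 0.38 (0.131) and 1.52 ± 0.39 (0.00501). The median over the members was 1.15 in the duodenum and 2.26 in the ileum, against -0.04 and 0.00 over all genes.

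A few libraries carried calls of this last step. The duodenal Itln1 call was lost without duodenum week 3 sample 1 (edgeR adjusted p = 0.0999), week 3 sample 3 (0.101), week 4 sample 1 (0.0614) or week 4 sample 2 (0.0882), and the duodenal Mptx1 call without week 3 sample 1 (0.0517) or week 4 sample 3 (0.0781). Ileum week 4 sample 2 was the highest of its group in Lyz1, Mmp7, Itln1 and Mptx2 and the lowest in Mptx1. Without it the ileal step was 1.12 for Lyz1 (0.0619), 1.80 for Mmp7 (3.95e-05), 1.69 for Itln1 (0.00556), -1.05 for Mptx1 (0.0306) and 5.47 for Mptx2 (1.59e-09).

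**Figure D3:**
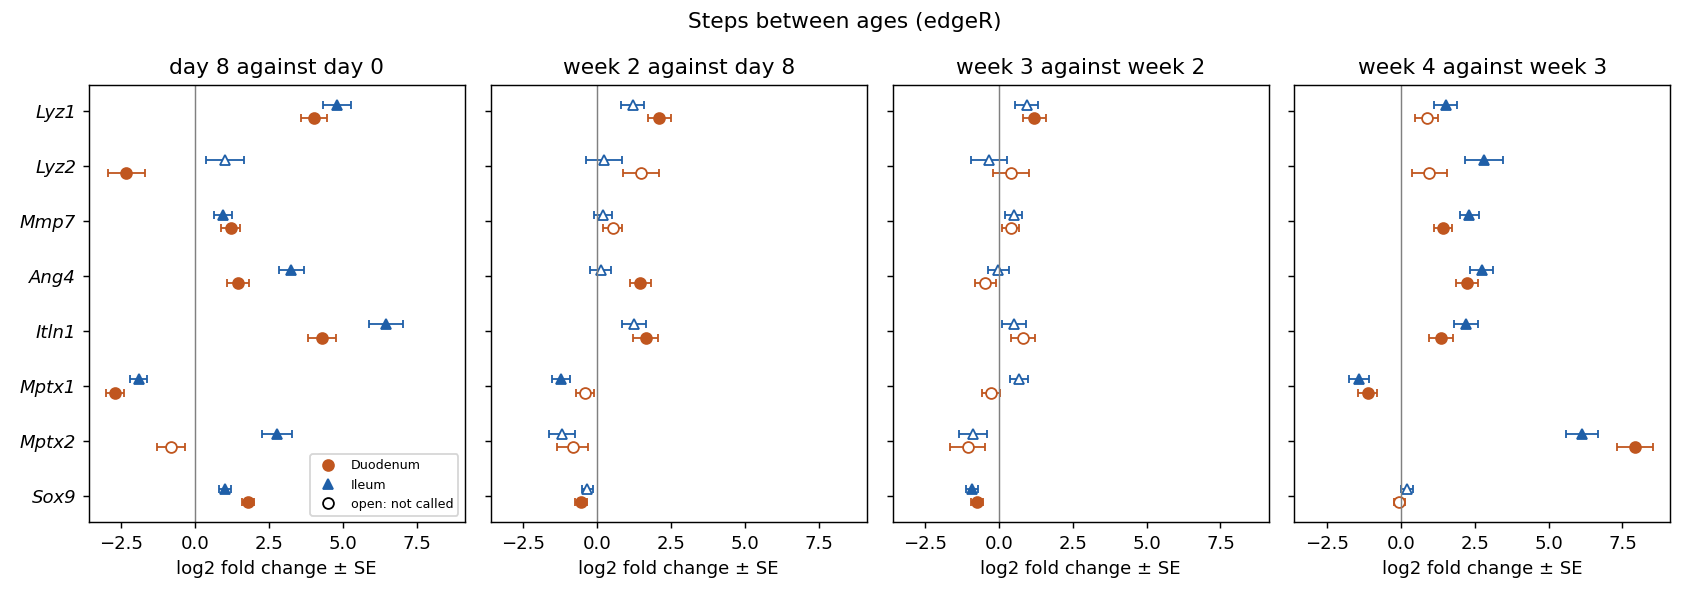
Log2 fold change with its standard error for the 8 genes in 4 steps between ages, from edgeR; circles are duodenum and triangles ileum, filled where the adjusted p was under 0.05. The step from week 3 to week 4 holds the Mptx2 changes of 7.94 (duodenum) and 6.13 (ileum).

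The course over age differed between the regions for 4 of 8 members (edgeR test of the interaction of region and age, 22.4% of all genes called). They were Mptx2 (adjusted p = 0.0031), Lyz2 (0.0218), Itln1 (0.0407) and Mptx1 (0.0448). Sox9 (0.0662), Ang4 (0.0663), Mmp7 (0.19) and Lyz1 (0.57) did not pass. The Mptx2 call held under each alternative run, while the other 3 calls were lost without the low-count filter or with all 48 samples, and those of Itln1 and Mptx1 also when many of the single samples were left out. Leaving out day 4 also lost the Mptx1 call (edgeR adjusted p = 0.217).

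Averaged over the ages, 5 members differed between ileum and duodenum, where 62.1% of all genes did (31.9% higher, 30.2% lower). Mptx2 was higher in the ileum by 1.25 ± 0.18 on the log2 scale (edgeR adjusted p = 2.02e-07), Mptx1 by 0.61 ± 0.11 (1.14e-05) and Mmp7 by 0.46 ± 0.11 (0.000524). Itln1 was lower in the ileum, at -0.90 ± 0.16 (8.1e-06), and so was Sox9, at -0.54 ± 0.07 (4.8e-08). Lyz1 stood at -0.12 ± 0.14 (0.482) and Ang4 at -0.07 ± 0.13 (0.672), while Lyz2 was at -0.49 ± 0.22 (0.058).

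**Figure D4:**
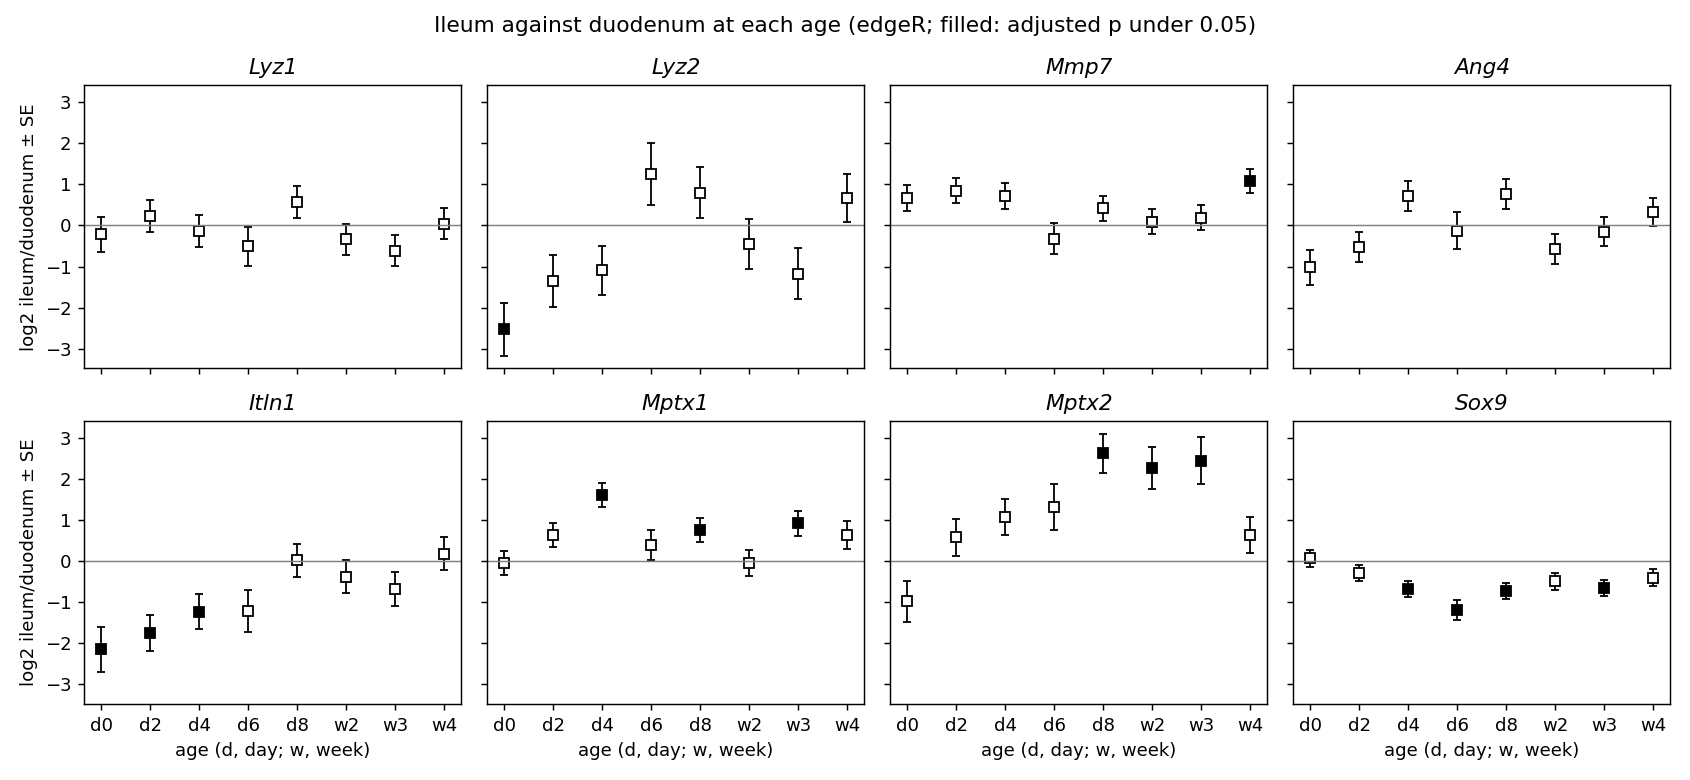
Log2 ratio of ileum to duodenum with its standard error at each age (d, day; w, week) for the 8 genes, from edgeR, filled where the adjusted p was under 0.05; above 0 is higher in the ileum. Itln1 starts at -2.15 at day 0, Mptx2 is at 2.63, 2.27 and 2.45 at day 8, week 2 and week 3, and Lyz1 has no filled point.

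Age by age, the members called between regions varied, and a missing call does not show that a difference was absent. At day 0 Lyz2 and Itln1 were lower in the ileum, 2 members against 6.1% of all genes (2.97% higher, 3.14% lower), with Itln1 at -2.15 ± 0.56 on the log2 scale (edgeR adjusted p = 0.0163) and Lyz2 at -2.53 ± 0.64 (0.0138). The Lyz2 call was lost without duodenum day 0 sample 3 (0.255) or ileum day 0 sample 1 (0.0982). The Itln1 call was lost without duodenum day 0 sample 3 (0.208) or ileum day 0 sample 1 (0.107) or 3 (0.0928). At day 2 Itln1 alone was called, at -1.75 ± 0.44 (0.00767), against 8.01% of all genes (4.05% higher, 3.97% lower), and this was lost without ileum day 2 sample 2 (0.0607).

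At day 4, 3 members were called (26.6% of all genes, 11.6% higher and 15% lower): Mptx1 was higher in the ileum by 1.61 ± 0.30 on the log2 scale (edgeR adjusted p = 0.00019), Itln1 was at -1.23 ± 0.42 (0.0274) and Sox9 at -0.67 ± 0.20 (0.0111). The Itln1 value shrank to -0.51 without duodenum day 4 sample 3 (0.426), and its call was also lost without ileum day 4 sample 1 (0.131) or 3 (0.117). The Sox9 call was lost without duodenum day 4 sample 2 (0.121) or ileum day 4 sample 1 (0.0972) or 3 (0.0651). At day 6 Sox9 was lower in the ileum, at -1.19 ± 0.25 (0.000292), the 1 member called against 35.3% of all genes (17.8% higher, 17.5% lower). Itln1 was at -1.21 ± 0.51 at day 6 (edgeR adjusted p = 0.0606), close to its day 4 value, and was not called with 2 samples per region.

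From day 8 to week 3 Mptx2 was the member with the widest regional gap. It was higher in the ileum by 2.63 ± 0.48 on the log2 scale at day 8 (edgeR adjusted p = 0.000101), 2.27 ± 0.51 at week 2 (0.00167) and 2.45 ± 0.57 at week 3 (0.00369), and in each case all ileum samples were above all duodenum samples. At day 8 Mptx1 (0.76 ± 0.30, 0.0414) and Sox9 (-0.72 ± 0.20, 0.00424) were called with it, 3 members against 39.6% of all genes (17.1% higher, 22.6% lower). At week 2 it was the 1 member called (22.4%, 10.6% higher and 11.8% lower). At week 3 Mptx1 (0.92 ± 0.31, 0.0397) and Sox9 (-0.65 ± 0.20, 0.0255) were called with it (3 members, 14.2%, 7.28% higher and 6.9% lower). The Mptx1 call at day 8 was lost in 5 of the 6 repeats that left out 1 sample of the groups compared, and that at week 3 in 6 of 6. The Sox9 call at week 3 was lost without duodenum week 3 sample 3 (0.19) or ileum week 3 sample 1 (0.0528) or 3 (0.165).

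At week 4 neither pentraxin was called, with Mptx2 at 0.64 ± 0.43 on the log2 scale (edgeR adjusted p = 0.265) and Mptx1 at 0.63 ± 0.34 (0.152). Without ileum week 4 sample 2, Mptx2 was at -0.02 (0.99) and Mptx1 was called at 1.00 (0.031). Mmp7 was the 1 member called (28.4% of all genes, 14.5% higher and 13.9% lower), higher in the ileum by 1.08 ± 0.30 (0.0082). That value was 0.57 and not called without ileum week 4 sample 2 (0.16).

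Set against each other per length of exon, the members changed order with age. At day 0 Mptx1 had the highest mean level, 61.4 CPM per kilobase in the duodenum and 59.7 in the ileum, and Lyz1 was at 2.68 and 2.32. At week 4 Lyz1 led with 789 and 810 CPM per kilobase, followed by Itln1 with 610 and 689, Mptx2 with 173 and 269, Ang4 with 109 and 136, and Mmp7 with 50.4 and 107. Lyz2 had 15.7 and 25.1, Sox9 10.1 and 7.71, and Mptx1 2.61 and 4.17. Among neighbours in this order, the duodenum samples overlapped between Lyz1 and Itln1 and between Lyz2 and Sox9. The ileum samples overlapped in each neighbouring pair from Lyz1 down to Mmp7.

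Over the 46 samples, which share scaling and age groups, log2 CPM of Lyz1 and Itln1 went together closely (Pearson r = 0.96), and both with Ang4 (0.88 and 0.91). Mptx1 ran against them (-0.88 with Lyz1 and -0.90 with Itln1). Mptx2 was only loosely related to Lyz1 (0.31) and Itln1 (0.36), more to Mmp7 (0.63) and Ang4 (0.61), and Sox9 had correlations of -0.21 to 0.07 with the others. Among 12356 genes, those most like Lyz1 were the alpha-defensins Defa30, Defa23 and Defa39 (each 0.98), and those most like Itln1 were Lyz1 (0.96), Cyp3a25 (0.95) and Defa30 (0.95). Ang4 was most like Itln1 (0.91), Defa24 (0.90) and Lyz1 (0.88).

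The other members had other companions. Lyz2 went most closely with Itgb2, Ncf1 and Plek (0.86, 0.82 and 0.82), genes of white blood cells. Mmp7 went with Vsig10 (0.90), Reg3g (0.89) and Relb (0.89), and Mptx2 with Nlrc5 (0.81), Duox2 (0.80) and Ikzf2 (0.75). Mptx1 went with Igf2 (0.91), Arhgap44 (0.90) and H19 (0.89), of which Igf2 and H19 are imprinted genes of fetal growth. Sox9 went with Usp49 (0.94), Ccdc3 (0.92) and 2700049A03Rik (0.92). These correlations are descriptions over samples that share their ages.

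The defensins Defa24 and Defa17, which mark Paneth cells, were detected at day 0 already. Defa24 had 98.1, 71.7 and 77.3 CPM in day 0 duodenum and 1085, 623 and 543 at week 4, and Defa17 went from 21.4, 15.9 and 12.3 CPM to 333, 187 and 170. In the ileum Defa24 went from 43.8, 70.1 and 69.6 CPM to 646, 827 and 766. Defa24 and Defa17 held most of the day 0 duodenum sum of all 28 alpha-defensins, which was 115 to 159 CPM. Between day 0 and week 4, 24 of 26 tested alpha-defensins rose in each region. Their median log2 fold change was 9.66 in the duodenum and 10.57 in the ileum. This median rests partly on genes near 0, such as Defa38, at 0 in 15 of the 46 samples. The sum of all 28 changed by less, to 2454 to 4591 CPM at week 4 in the duodenum. In the ileum the sum went from 77.4 to 128 CPM at day 0 to 3840 to 6158 at week 4. From week 3 to week 4 only 3 of 26 rose and 2 fell in the duodenum, and 4 rose in the ileum, with a median log2 fold change of -0.11 and 0.63, beside 4 and 6 of the 8 members.

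Genes that guide Paneth cell formation moved by less than the members, going by the median. Of 18 regulators listed, 10 rose and 1 fell from day 0 to week 4 in the duodenum, with a median log2 fold change of 0.72, and 14 rose and 1 fell in the ileum, with a median of 1.02. Axin2, a Wnt target, rose by 2.34 ± 0.17 in the duodenum (edgeR adjusted p = 8.69e-14), and Tcf7l2, a Wnt effector, by 2.19 ± 0.16 in the ileum (2.98e-14). Bhlha15, which shapes secretory cells, rose by 2.27 ± 0.33 (3.93e-07) and 3.64 ± 0.35 (5.37e-11), and Ephb3, a receptor that places Paneth cells at the crypt base, by 2.01 ± 0.31 (1.42e-06) and 2.88 ± 0.33 (2.25e-09). From week 3 to week 4, 2 of 18 regulators rose in the duodenum and 5 in the ileum.

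Of 5 signals by which Paneth cells support stem cells, 2 rose and 1 fell in each region from day 0 to week 4. Wnt3 rose by 1.55 ± 0.26 in log2 units in the duodenum (edgeR adjusted p = 7.79e-06) and 2.75 ± 0.28 in the ileum (1.3e-10), and the Notch ligand Dll4 by 1.06 ± 0.25 (0.000797) and 1.42 ± 0.25 (1.58e-05). The EGF receptor ligand Tgfa fell by 1.38 (SE 0.18, 9.8e-08) and fell by 1.73 (SE 0.19, 7.76e-10).

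Of 12 other secreted and effector genes listed here for Paneth cells, 11 were tested, since Ang5 was at 0 in all 46 samples. Which cells of the bulk tissue made these transcripts was not tested. By week 4, 8 duodenal and 6 ileal changes from day 0 were rises and none was a fall. The antibacterial lectin Reg3g rose by 9.83 ± 0.72 in log2 units in the duodenum (edgeR adjusted p = 3.47e-13) and 12.87 ± 0.81 in the ileum (5.66e-15), and Reg3b by 8.35 ± 0.80 (2.42e-10) and 10.33 ± 0.87 (9.26e-12). From week 3 to week 4, 3 of 11 rose in the duodenum, and 7 rose and 2 fell in the ileum.

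Goblet and epithelial markers also moved with age. By week 4, 4 of 6 goblet genes had risen from day 0 in the duodenum and 6 of 6 in the ileum, with summed levels of 2729 to 2988 CPM at day 0 and 4840 to 10050 at week 4 in the duodenum, and 3570 to 4053 and 13954 to 18820 in the ileum. All 4 epithelial genes rose in both regions, Krt8 by 1.73 ± 0.23 (edgeR adjusted p = 7.34e-08) and 1.93 ± 0.23 (7.36e-09) on the log2 scale. Since Itln1 is made by goblet cells too, their part in its rise was not tested. The sum of 6 pancreatic acinar genes in the duodenum was 19.2 to 44.1 CPM at day 0, 21.8 to 434 at day 2, 42.5 to 93.8 at day 4, 105 to 137 at day 6, 17.7 to 27.8 at day 8, 29.6 to 36.6 at week 2, 8.60 to 12.4 at week 3 and 4.46 to 12.4 at week 4, and in the ileum it lay between 1.89 and 27.4 over all ages. Its part in the differences between regions was not tested. Muc6 of Brunner glands was not analysed here. Tff2, the other gene listed for these glands, was uneven between samples of a group. It spanned 0.187 to 46.7 CPM in the duodenum at day 4 and 0.119 to 17.7 in the ileum at day 0. How far uneven sampling entered the regional differences was not tested.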

How the data were processed

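Estimated counts per gene were deposited by the authors as whole numbers from tximport, which the table's name gives. The submitters' processing notes name STAR 2.6.1d, Salmon 0.14.2, DESeq2 1.30.1 and mm10, without order or role, and the annotation release is not given in the sources used here. The authors also deposited a scaled signal per region with 40 sample columns, used here only for gene symbols. Those columns hold no day 4 samples and no day 6 samples numbered 3. Counts were kept by filterByExpr (21986 genes), scaled by TMM and fitted in edgeR 4.0.16 (R 4.3.3), with one mean per region and age over 46 samples. The 22 tests were contrasts of those means with Benjamini-Hochberg adjustment within each, called at 0.05. CPM is after TMM scaling, and correlations used log2 CPM with a prior count of 2. Total counts of 16824021 to 65042327 set the precision of low genes. The procedure was tested on simulated data. Alternatives were RLE scaling, no filter, a mean count of at least 10, DESeq2 1.42.0, all 48 samples, 40 samples without day 4, only the groups compared, a replicate block and each sample left out. Members and lists were chosen with earlier results of these data known. Named are all members, the 3 genes most correlated with each (mean log2 CPM of at least 1), up to 3 genes of largest change per list, list genes at 0, and Pdx1, Fabp6 and Sis as checks. C1qa, S100a8, Adgre1, Csf1r, Ltf, Defa17 and Defa24 are marker genes named beyond that rule, chosen with their values seen. Sequences are from RefSeq, and shared transcript words from GENCODE M21.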

Additional observations from a re-analysis of the deposited data

Results flagged for a closer look

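The course over age differed between duodenum and ileum, by edgeR's test of the interaction of region and age, for Mptx2 (adjusted p = 0.0031), Lyz2 (0.0218), Itln1 (0.0407) and Mptx1 (0.0448). Mptx2 stayed several times higher in the ileum from day 8 to week 3, and its regional difference was not called at week 4. Lyz2 and Itln1 began lower in the ileum. Mptx1 was lower in the duodenum than in the ileum at day 4, and its interaction call was lost without that age (edgeR adjusted p = 0.217). Of all genes, 22.4% were called in this test.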

How the results depend on the processing

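No call of a member changed sign in any alternative. From day 0 to week 4 the number of members called held at 6 for duodenum (6 to 7 with a sample left out) and at 7 for ileum, and both age effects held at 8. Interaction calls (4) went to 1 without the low-count filter and 1 with all 48 samples, and to 2 to 5 with a sample left out. Day 8 to week 2 in the ileum (1) gave 3 with a mean count of at least 10, 4 with 40 samples, 5 with only the groups compared, 4 with DESeq2, and 0 to 1 leaving out samples. Week 2 to week 3 in the duodenum (2) gave 1 without the filter, 4 with only the groups compared and 1 to 2 leaving out samples, and the same step in ileum (1) gave 2 with 40 samples, 2 with only the groups compared, 2 with DESeq2 and 1 to 2 leaving out samples. Week 3 to week 4 in the duodenum (5) gave 3 to 5 leaving out samples. Between regions, day 0 (2) gave 0 with only the groups compared and 0 to 2 leaving out samples, and day 2 (1) gave 2 with 40 samples, 4 with only the groups compared, 2 with DESeq2 and 0 to 1. Day 4 (3) gave 0 with only the groups compared, 5 with DESeq2 and 1 to 5, and has no value with 40 samples. Day 6 (1) gave 2 with a mean count of at least 10, 0 with all 48 samples, 3 with 40 samples, 5 with only the groups compared and 3 with DESeq2. The setting with all 48 samples put the 2 left-out day 6 libraries back under the region labels that their Pdx1 and Fabp6 levels went against. Day 8 (3) gave 7 with only the groups compared. Week 2 (1) gave 2 with 40 samples, 3 with only the groups compared and 1 to 2, and week 3 (3) gave 1 with all 48 samples and 1 to 2. The causes were not tested.

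Calls over all genes moved by over 1.5 times in 13 comparisons, and the background shares beside them move likewise. The interaction (4930) ranged from 947 to 9512. Day 0 to day 8 in the ileum (4234) ranged from 2605 to 5865, day 8 to week 2 from 838 to 6278 in duodenum (3448) and from 64 to 3472 in ileum (1460), and week 3 to week 4 from 1627 to 4568 in duodenum (2794) and from 1527 to 4753 in ileum (3534). Between regions the range was 509 to 2419 at day 0 (1342), 934 to 5408 at day 2 (1762), 354 to 7187 at day 4 (5855), 0 to 9442 at day 6 (7762), 2561 to 7426 at week 2 (4922), 1376 to 5585 at week 3 (3117) and 2491 to 8097 at week 4 (6234).

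Same-numbered duodenum and ileum samples of one age deviated together in 16 of 23 pairs (r over 0.1, range -0.363 to 0.672). The mean r was 0.155. Deviations were taken from group means, so the mean r of -0.079 for differently numbered pairs is largely set by it and adds no evidence. At day 6, with 2 samples per region, both same-numbered pairs must have the same r (0.187). Pairing was taken as shown only if every pair passed 0.1, so whether the numbers mark shared mice is not settled. With the number as a replicate block no call of a member was lost, and members called were 6 in the interaction (Mmp7 and Ang4 gained, edgeR adjusted p = 0.0246 and 0.0262), 2 in day 8 to week 2 in the ileum (Itln1 gained, 0.0475), and between regions 3 at day 0 (Mmp7, 0.0498), 2 at day 2 (Mmp7, 0.00887), 5 at day 4 (Mmp7, 0.00771, and Mptx2, 0.022), 3 at day 6 (Itln1, 0.0111, and Mptx2, 0.0375) and 4 at day 8 (Ang4, 0.0456).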

Other observations

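The day 6 libraries numbered 3, left out above, carried Sox9 at 66.1 CPM where labelled duodenum and 136 CPM where labelled ileum, Itln1 at 21.7 and 38.2 CPM, and Mptx2 at 9.07 and 3.11 CPM. Lyz1 was at 25.8 and 30.9 CPM, Mmp7 at 11.2 and 13.3, Ang4 at 6.03 and 6.65, Mptx1 at 8.18 and 6.91, and Lyz2 at 6.92 and 3.62.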
